A study of Mus musculus with 4 samples.

Results

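CpGs whose flanking bases look like those of a TG repeat, or of a CA repeat on the opposite strand, were described across 4 libraries of mouse E14 embryonic stem cells. A listed CpG was taken as a member where the 5 bases centred on its plus-strand cytosine read TGCGT (TG orientation) or CACGC (CA orientation), which look like the same kind of sequence read from either strand. Sequence alone decided membership, but the contexts themselves were chosen by their median level and share at 0 in the first whole-genome library. Only these 5 bases were read, so a member with no other nearby need not lie in a repeat. In a CA-orientation row, the minus-strand cytosine of the CpG lies in the sequence GCGTG and the listed plus-strand cytosine does not. The members numbered 22923 of the 331875 CpGs in the first whole-genome library, or 6.91% of its list, with 12694 in TG and 10229 in CA orientation. The other 308952 rows, of 62 contexts, served as the reference.

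The data were methylation-assisted bisulfite sequencing (MAB-Seq) lists of 5-formylcytosine and 5-carboxylcytosine, bases that TET enzymes make from 5-methylcytosine and the glycosylase TDG removes. The lists came from 1 reduced-representation library of cells with an shRNA against Tdg, 1 of cells with a control shRNA, and 2 whole-genome libraries of wild-type cells. All 4 were made from E14 cells whose DNA had been methylated with M.SssI before bisulfite conversion. The labels do not say whether the wild-type libraries came from separate cultures. Each shRNA group was 1 library, and the extent of Tdg depletion was not analysed here. The lists held 8948 cytosines with Tdg shRNA, 12895 with control shRNA, and 331875 and 118502 in the first and second wild-type libraries. Each level is the percent of converted reads left once a background had been subtracted. It includes cytosines that escaped M.SssI beyond that background and does not tell a modification in all cells from one in some cells. Depth could be recovered for the second wild-type library alone, with a median of 13 reads (quartiles 11 and 19) per listed cytosine with recovered reads, and is unknown for the others.

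Runs of the dinucleotide TG, paired with CA on the other strand, are among the commonest simple repeats of the mouse genome. They alternate purine and pyrimidine, and some such runs can leave the usual right-handed helix. A CpG inside them differs from the repeat unit by a single base, since deamination of 5-methylcytosine turns CpG into TpG on the strand that carries it, and CpA on the other. M.SssI methylates unmodified CpG cytosines on either strand, so telling that a CpG was left convertible on only 1 strand takes reads of both strands.

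Neighbouring members often sat so close that their 5-base contexts touched and spelled out the repeat itself. In 1162 places, 735 in TG and 427 in CA orientation, the contexts of at least 2 members joined into an unbroken stretch, of 9 bases in the median and 61 in the longest. The unit repeated every 4 bases in 1157 of them. Stretches 1 to 4 were picked by length and are printed to show the sequence that carries the even steps described further on. Other stretches were as long as stretch 4, which came first by position. Stretch 5, with a unit of 5 bases, and stretch 6, with every CpG at 0, were chosen after their values were seen. All are given on the plus strand of mm9, 5′ to 3′, with the CpGs in capitals.
Stretch 1, chr11:114389087-114389147: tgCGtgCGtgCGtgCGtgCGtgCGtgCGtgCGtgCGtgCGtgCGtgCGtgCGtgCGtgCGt
Stretch 2, chr13:119446680-119446732: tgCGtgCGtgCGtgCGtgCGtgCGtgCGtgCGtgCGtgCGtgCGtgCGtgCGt
Stretch 3, chr14:118574591-118574643: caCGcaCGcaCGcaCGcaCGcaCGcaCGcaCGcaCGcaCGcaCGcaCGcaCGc
Stretch 4, chr1:24464424-24464472: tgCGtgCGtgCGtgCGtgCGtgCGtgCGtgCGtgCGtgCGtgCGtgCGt
Stretch 5, chr8:107728781-107728825: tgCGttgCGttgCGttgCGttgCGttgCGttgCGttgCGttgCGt
Stretch 6, chr12:92808536-92808576: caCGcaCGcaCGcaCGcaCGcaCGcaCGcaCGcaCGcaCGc

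Levels varied both within and between these stretches. The 15 CpGs of stretch 1 had levels of 14.0% to 49.9% with a median of 21.2%, and 12 of them were also listed in the second wild-type library, all on the plus strand. The 13 CpGs of stretch 2 reached 22.6% to 88.4%, with a median of 69.2% and 11 at 50% or more. Stretch 4 held 12 CpGs of 34.3% to 58.8% (median 45.5%). None of the CpGs of stretches 2 and 4 was listed in the second library. The 9 CpGs of stretch 5 had levels of 29.5% to 78.2% (median 54.8%). In CA orientation, the 13 CpGs of stretch 3 were scattered between 0 and 89.7% (median 34.0%), and 6 were listed in the second library, all on the minus strand. All 10 plus-strand cytosines of stretch 6 were at 0. Genes and other annotation at these places were not analysed here.

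**Figure D1:**
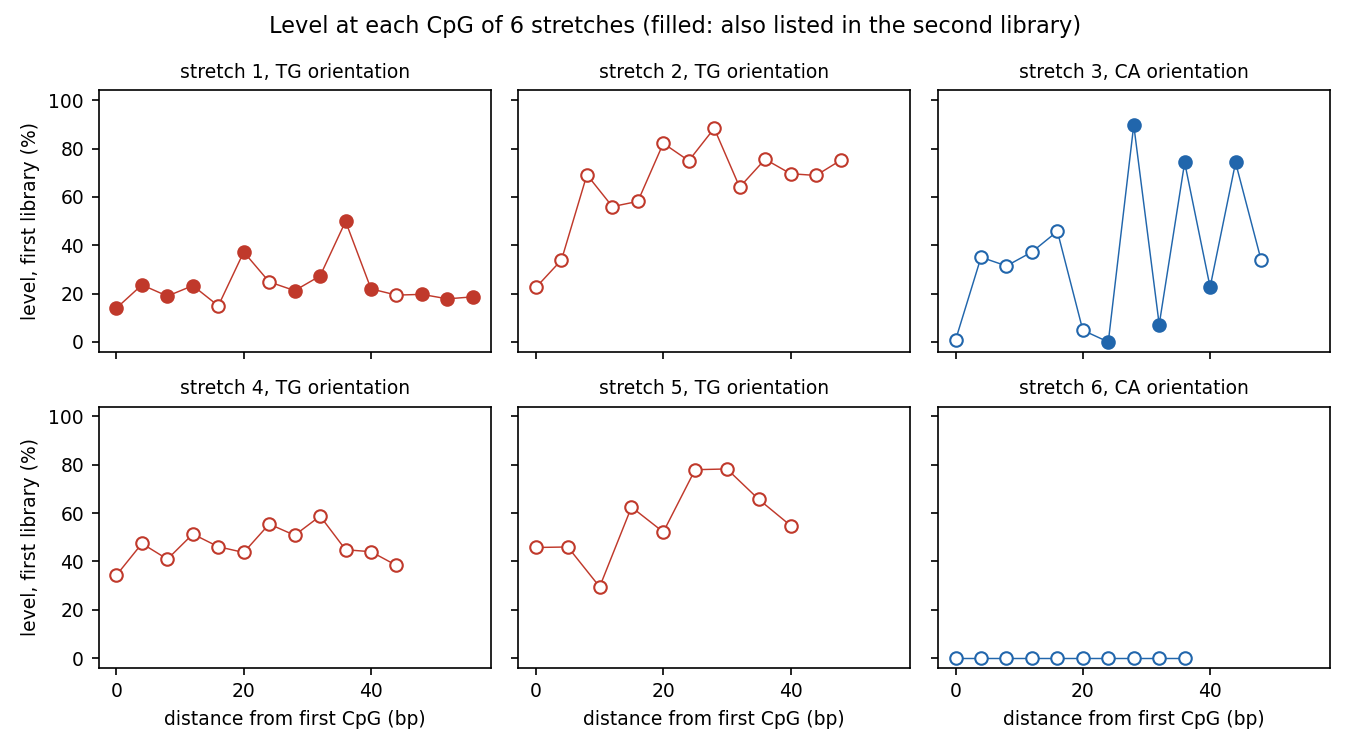
Level of each plus-strand CpG cytosine in the first whole-genome library (%, y axis) against its distance from the first CpG of the stretch (bp, x axis), for the 6 stretches printed above. Filled points were also listed in the second library, on the plus strand in stretch 1 and on the minus strand in stretch 3. The TG-orientation stretches lie between 14.0% and 88.4%, stretch 3 swings from 0 to 89.7%, and stretch 6 stays at 0.

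TG-orientation members had higher levels, and CA-orientation members lower ones, than the other rows of the first library. As the contexts were chosen by these values, they are a description. The median level was 18.1% (95% interval 17.7% to 18.7%, quartiles 9.48% and 43.4%) in TG orientation. It was 1.86% (0.928% to 2.89%, quartiles 0 and 14.1%) in CA orientation, and 11.1% (quartiles 5.57% and 18.97%) in the other rows. The 3 groups overlapped widely, and the members differed from the remainder most at the ends of the scale.

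At the lower end, 1056 TG-orientation rows or 8.32% (7.84% to 8.81%) were at 0. In CA orientation 4904 rows or 47.9% (46.97% to 48.9%) were at 0, against 19.6% (19.5% to 19.8%) of the other rows and 20.1% of the whole list. Without rows at 0, the median was 20.5% in TG orientation and 13.5% both in CA orientation and in the other rows. A lower level in CA orientation was thus seen in the share at 0 and not in the level of the remainder. At the upper end, 2756 TG-orientation rows or 21.7% (20.996% to 22.4%) were at 50% or more. In CA orientation these were 360 rows or 3.52% (3.17% to 3.89%), against 5.31% of the other rows and 5.88% of the whole list. A level of 100% was reached by 4.58% (4.23% to 4.96%) of TG-orientation rows, by 1.01% in CA orientation and by 1.36% (1.32% to 1.40%) of the other rows.

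**Figure D2:**
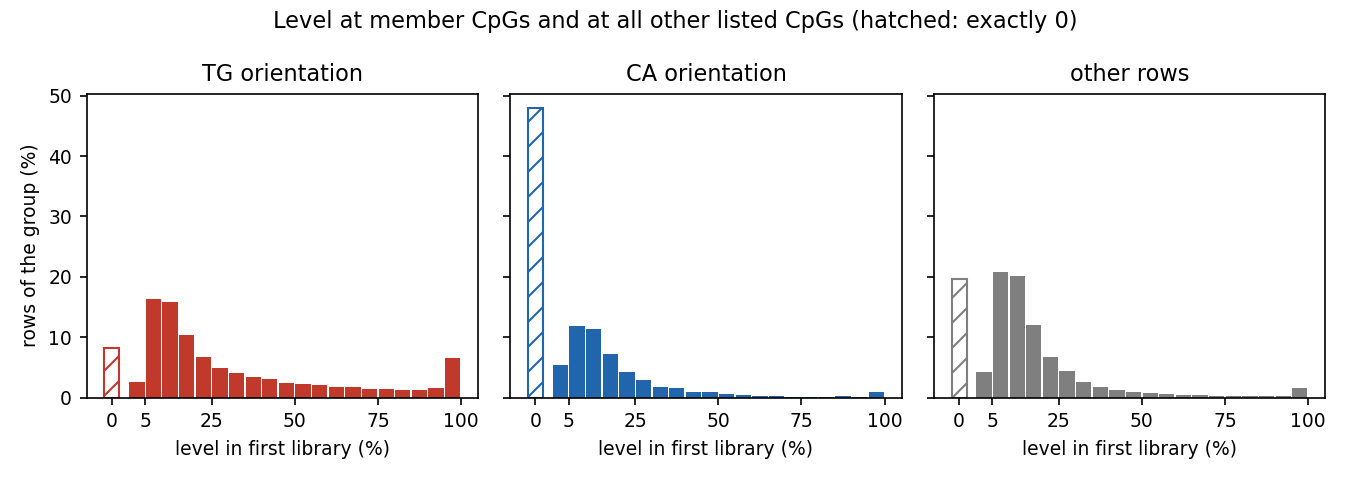
Share of rows (%, y axis) by level in the first whole-genome library (%, x axis, bins of 5 points) for TG-orientation members, CA-orientation members and all other rows. Hatched bars are rows at exactly 0, which make up 8.32%, 47.9% and 19.6%, and the TG-orientation panel has the heaviest tail above 50%.

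The direction was alike on every autosome, though the size was not. As the contexts were chosen by these values over the whole list, the autosomes show their spread and are no independent support. The median level of TG-orientation rows was above that of the other rows on 19 of 19 autosomes, with ranges of 13.4% to 27.4% and 10% to 13.9%. CA-orientation medians, from 0 to 13.0%, were below that of the other rows on 19 of 19. Chromosome 1 differed least in CA orientation, with a median of 13.0% against 13.9%, and 28.9% against 13.0% of rows at 0. The share at 0 ran from 5.82% to 11.3% in TG orientation, from 28.9% to 59.9% in CA orientation and from 13.0% to 21.9% in the other rows, so that these ranges did not overlap. Members made up 5.63% (chromosome 8) to 8.48% (chromosome 18) of the rows of an autosome and 6.96% of all autosomal rows. On the X chromosome they were 165 of 3112 rows, 5.30% (4.54% to 6.15%), and on the Y chromosome 8 of 40, 20% (9.05% to 35.6%), all in TG orientation. On unplaced contigs (chrUn_random) they were 23 of 1841 rows, 1.25% (0.794% to 1.87%), 5 in TG and 18 in CA orientation.

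Among the 64 contexts, TGCGT ranked first by number of rows, median level, share at 50% or more and the fewest rows at 0, while CACGC had the most rows at 0 and the lowest median. The ranks by median level and share at 0 restate the values by which the contexts were chosen. CGCGT and TGCGC, which differ from TGCGT by its first or last letter, and CGCGC, which differs by both, came next by share at 50% or more. CGCGT had a median of 14.7% with 16.3% of rows at 50% or more, TGCGC had 13.1% and 12.7%, and CGCGC had 11.8% and 14.3%. Contexts with another change in these positions had fewer rows at 50% or more, and a median of 11.3% for TGCGA, 11.0% for TGCGG, 11.3% for AGCGT and 12.3% for GGCGT. Their shares at 50% or more were 5.34% for TGCGA, 4.87% for TGCGG, 5.23% for AGCGT and 5.53% for GGCGT. With a change of the second letter, the median was 11.6% for TACGT, 10.5% for TCCGT and 10.9% for TTCGT. The median over the 62 other contexts ran from 9.18% (CTCGC) to 14.7% (CGCGT). By share at 0, CTCGC (33.8%) and CGCGC (30.1%) followed CACGC, and both differ from it by its second letter. The smallest share at 0 among the other contexts was 11.9% (GACGA). Genome-wide frequencies of the contexts were not analysed here, so a number of rows is no enrichment.

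Members stood at even distances from each other, in steps that follow the repeat. Distances play no part in how members were chosen, except that 2 contexts of the same orientation cannot lie less than 4 bp apart. Of all members, 9353 or 40.8% (40.2% to 41.4%) had another member within 100 bp, and the nearest was at an even distance for 9015 of these, 96.4% (95.99% to 96.8%). It was at an odd distance for 338. Other rows that had another such row within 100 bp, 134486 in number, had the nearest at an even distance in 54.0% (53.7% to 54.2%). The difference between even and odd shares among members was 92.8 points (91.98 to 93.5). The nearest member was exactly 4 bp away for 3463 rows, the step at which the contexts share a letter. They then spell out TGCGTGCGT in TG orientation (2279 rows) and CACGCACGC in CA orientation (1184 rows). At the other extreme, 55.7% of members had no other within 1000 bp.

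Counting every pair of members within 100 bp gave 23454 even distances of 24295, or 96.5%. Both members had the same orientation in 98.2% of these pairs. Multiples of 4 bp made up 64.7% (63.96% to 65.5%) of pairs in TG orientation and 56.4% (55.3% to 57.4%) in CA orientation, against 28.9% (28.6% to 29.1%) of pairs of other rows. In TG orientation 1545 pairs were 4 bp, 712 were 6 bp, 1166 were 8 bp and 238 were 10 bp apart. The corresponding CA-orientation pairs numbered 760, 448, 540 and 240. At the odd distances of 5, 7 and 9 bp there were 9, 4 and 2 pairs in TG orientation and 3 at each in CA orientation. Other rows, by comparison, had 4906 pairs at 4 bp and 1846 at 5 bp.

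**Figure D3:**
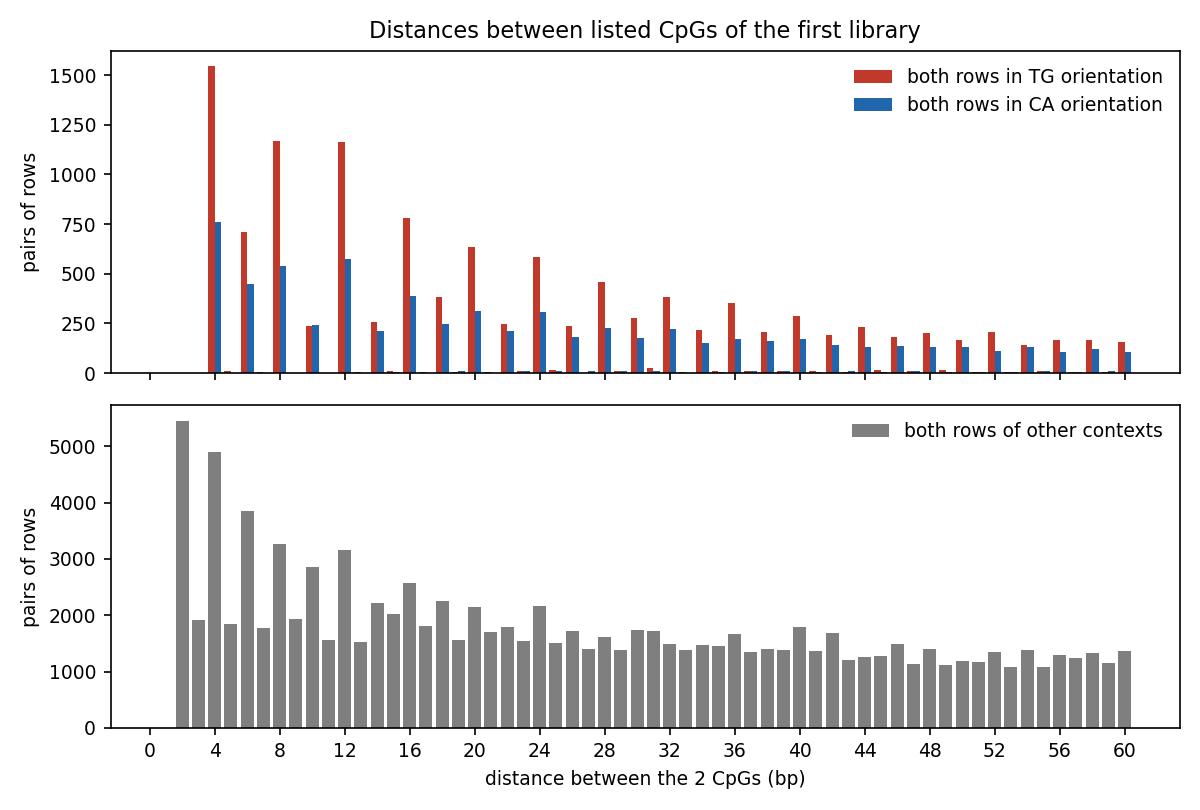
Number of pairs of listed CpGs (y axis) at each distance up to 60 bp (x axis) in the first whole-genome library, for members of the same orientation (upper panel) and for rows of other contexts (lower panel). Members fall almost wholly on even distances, with peaks at multiples of 4 bp, such as 1545 TG-orientation pairs at 4 bp and 9 at 5 bp, whereas other rows occur at both.

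Even steps extended to contexts outside the 2 that define members. With the same count made within each context, the nearest row of the same context within 100 bp was at an even distance for 96.95% of TGCGT and 96.0% of CACGC rows. CGCGC had 96.9%, CGCGT 94.4%, TACGC 93.1% and TACGT 92.0%, while the median over the 62 other contexts was 58.3%. The share of rows with a row of the same context within 100 bp was 45.5% for TGCGT, 33.3% for CACGC and 46.4% for CGCGC, against a median of 2.64%.

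Members were then joined into clusters wherever the next lay within 100 bp. There were 2206 clusters of at least 2 members, holding 9353 rows. Of these, 2095 or 94.97% held a single orientation, and in 2017 or 91.4% every step was even. The largest had 48 members in TG orientation (chromosome 19, 53423306 to 53424014) and 41 in CA orientation (chromosome 4, 53178389 to 53178705), places named after their values were seen. The first had levels of 3.92% to 90.9% with a median of 36.7%, and 4 of its CpGs were listed in the second library, all on the plus strand. All 41 plus-strand cytosines of the second were at 0, and 18 of its CpGs were listed in the second library, all on the minus strand.

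Levels moved apart with cluster size, upward in TG and to 0 in CA orientation. Members of TG orientation without another within 100 bp numbered 6854 and had a median of 12.6% (12.3% to 12.8%). The median of cluster medians was 23.4% (21.2% to 25.5%) over 582 TG clusters of 2, 29.2% (24.2% to 32.9%) over 380 of 3 or 4, and 36.9% (32.99% to 42.1%) over 238 of 5 to 9. It was 37.9% (33.1% to 45.98%) over 87 clusters of 10 to 19 and 50.6% (18.4% to 84.5%) over 11 larger ones, so the last steps lie within their intervals. In CA orientation, 6716 lone members had a median of 9.07% (8.76% to 9.38%), and the median was 0.103% (0 to 0.773%) over 401 clusters of 2 and 0 in every larger class. Rows at 0 made up 34.3% of lone CA members and 80.4% of the 1903 rows in CA clusters of 5 or more, of which 79 of 192 held nothing but rows at 0. In TG clusters of 5 or more, 2.89% of 2946 rows were at 0, and none of the 336 clusters was wholly at 0.

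**Figure D4:**
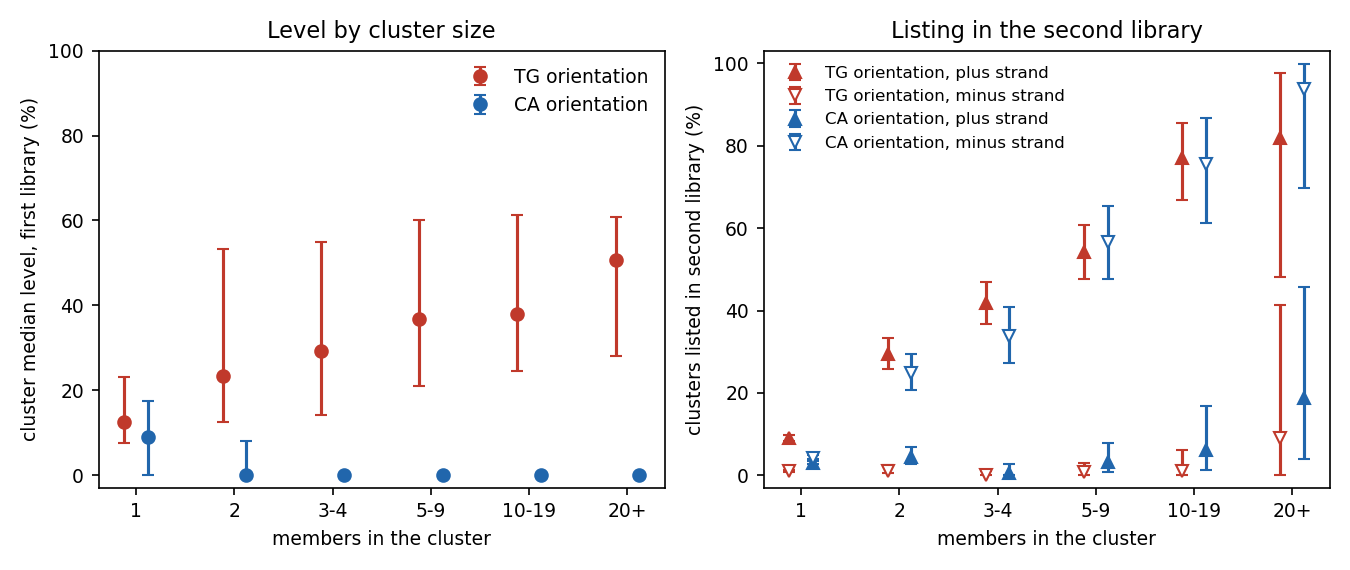
Left, median over clusters of the cluster's median level in the first library (%, y axis) by number of members (x axis), with quartiles as bars. Right, share of clusters with a CpG listed in the second library on the plus (filled) or minus strand (open), with 95% intervals. TG orientation climbs from 12.6% for lone members to 50.6%, the last over only 11 clusters, and is listed mostly on the plus strand. CA orientation falls from 9.07% for lone members to 0 and is listed more often on the minus strand.

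Distance to the nearest member ordered the levels in the same way. With the nearest member at 4 bp, TG-orientation rows had a median of 39.0% (37.2% to 40.9%) and 1.97% (1.44% to 2.63%) at 0. With an even distance of 22 to 100 bp the values were 24.2% (21.8% to 28.2%) and 5.56%, and with an odd distance up to 100 bp 14.8% (12.6% to 17.5%) and 11.1%. Rows with no member within 1000 bp had 12.6% (12.4% to 12.9%) and 12.3% (11.5% to 13.2%). The corresponding shares at 0 in CA orientation were 79.98% (77.6% to 82.2%) at 4 bp, 58.4% (54.0% to 62.7%) at even distances of 22 to 100 bp, 38.9% (31.1% to 47.2%) at odd distances and 34.0% (32.8% to 35.2%) without a member within 1000 bp. The lone members thus kept the direction of both orientations relative to the other rows, with differences of 1.44 points (1.24 to 1.75) in the median level of TG orientation and of 14.4 points (13.2 to 15.6) in the share at 0 of CA orientation. The differences over all members were 7.01 points (6.60 to 7.53) and 28.3 points (27.4 to 29.3). Values like those of lone members also occurred in single other contexts. Medians were 14.7% for CGCGT and 13.1% for TGCGC, and 33.8% of CTCGC rows were at 0.

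Adjacent members, which can share reads, had like levels. Spearman's rho between neighbouring TG-orientation rows was 0.77 over 1545 pairs at 4 bp, 0.67 over 1944 pairs at 6 to 20 bp, 0.49 over 940 pairs at 21 to 100 bp and 0.05 over 7988 pairs more than 1000 bp apart. The median absolute difference was 6.39 points at 4 bp and 13.0 points beyond 1000 bp. In CA orientation, both rows were at 0 in 541 of 760 pairs at 4 bp (71.2%) and in 15.0% of the 7439 pairs beyond 1000 bp.

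CpGs of other contexts close to TG-orientation members had higher levels at even than at odd distances. The 2673 other rows at an even distance of up to 20 bp from a TG-orientation member had a median level of 32.5% (30.7% to 34.0%), and 4.04% (3.33% to 4.86%) were at 0. The 387 at an odd distance had 12.1% (10.9% to 13.8%) and 17.3% (13.7% to 21.5%), and the 302638 beyond 100 bp 11.03% and 19.8%. Within 20 bp at even distances, TGCGC had a median of 40.1% over 694 rows, CGCGT 39.9% over 600 and CGCGC 35.8% over 637. More than 100 bp from any TG-orientation member, the same contexts had 11.6%, 11.6% and 10%. Near CA-orientation members, contexts went in different directions. The 2744 other rows at an even distance of up to 20 bp had a median of 7.42% (6.29% to 8.87%) with 42.7% at 0, and the 590 at an odd distance 15.4% (13.4% to 16.8%) with 20.3% at 0. At even distances 63.4% of 82 CACGT rows and 64.4% of 73 CTCGC rows were at 0. GGCGT, with a median of 25.1% over 168 rows and 1.19% at 0, lay on the other side, as did GGCGC with 25.2% and 5.70%, TGCGC with 23.4% and 10.6%, GCCGG with 24.4% and 11.4%, and CCCGG with 22.1% and 13.4%. CGCGC, whose CpG and adjoining letters read the same on both strands, differed between the orientations of its neighbour. Within 20 bp at even distances of CA-orientation members, 64.9% (62.2% to 67.6%) of its 1232 rows were at 0, against 2.04% (1.09% to 3.46%) of its 637 rows next to TG-orientation members.

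Where both orientations met in a larger cluster, CA-orientation rows had higher levels than in the list as a whole. Of 31 clusters of 5 or more members with both orientations, 30 had more TG-orientation members. Their 45 CA-orientation rows had a median of 18.8% (11.1% to 40.9%), 11.1% (3.71% to 24.1%) were at 0, 7 were listed in the second library on the plus strand and 0 on the minus strand, which allows up to 7.87%. The 345 TG-orientation rows in the same clusters had a median of 37.1% (32.4% to 44.7%).

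The second wild-type library listed both strands, and its values did not enter the choice of members. The first-library level that did enter goes with the strand of listing in the second library, as given below. Of TG-orientation rows, 2074 or 16.3% (15.7% to 17.0%) were listed there on either strand, and of CA-orientation rows 1381 or 13.5% (12.8% to 14.2%). The share was 7.84% (7.75% to 7.94%) among other rows and 8.34% over the whole list. It was higher than in the other rows on 19 of 19 autosomes in either orientation. By context, TGCGT ranked 3 and CACGC 4 of 64, below CGCGC with 19.8% and CGCGT with 16.4%.

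The strand of listing followed the orientation. Of the TG-orientation rows listed in the second library, 1981 or 95.5% (94.5% to 96.4%) were listed on the plus strand only, 82 or 3.95% on the minus strand only and 11 on both. Of the CA-orientation rows, 254 or 18.4% (16.4% to 20.5%) were listed on the plus strand only, 1104 or 79.9% (77.7% to 82.0%) on the minus strand only and 23 on both. Other rows were listed on the plus strand only in 74.5% (73.98% to 75.1%) and on the minus strand only in 23.1% (22.6% to 23.7%), and all rows in 73.3% and 24.5%. The first list gave plus-strand levels, which favours plus-strand coincidence for every context. Against other rows, plus-strand-only listing was 20.99 points (19.9 to 22) more frequent in TG orientation, and minus-strand-only listing 56.8 points (54.5 to 58.97) more frequent in CA orientation. Both differences had the same sign on 19 of 19 autosomes. Minus-strand-only shares ran from 62.5% to 95.5% in CA orientation and from 20.4% to 28.1% in other rows. In both orientations, then, the cytosine listed by the second library was mostly the one in the sequence GCGT.

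The split was also seen by cluster. Clusters of other rows were not counted by strand, and CpGs of a cluster can share reads, so the cluster counts are no independent support. Of 338 TG-orientation clusters with at least 2 CpGs listed in the second library, 329 had plus-strand listings alone, 3 had minus-strand listings alone and 6 had both. Of 194 such CA-orientation clusters, 6 had plus-strand listings alone, 176 minus-strand listings alone and 12 both. The share of clusters with any such listing rose with size. The plus strand was listed in 9.05% of lone TG-orientation members and in 77.0% (66.8% to 85.4%) of clusters of 10 to 19, and the minus strand in 4.35% of lone CA-orientation members and in 75.5% (61.1% to 86.7%) of such clusters. A larger cluster offers more CpGs to be listed, so this count rises with size even at a fixed rate per CpG. Per CpG, the plus strand was listed for 6.3% and the minus strand for 2.23% of the whole first list. The plus strand was listed for 30.1% (28.2% to 32.0%) of TG-orientation rows with a member at 4 bp and for 8.81% (8.13% to 9.54%) of those without one within 1000 bp. The minus strand was listed for 29.9% (27.3% to 32.6%) and 4.19% (3.71% to 4.71%) of the corresponding CA-orientation rows. Members without another within 1000 bp had the same preference, with 89.7% plus-strand-only listings among 623 TG-orientation rows and 57.8% minus-strand-only listings among 457 CA-orientation rows. Shares near these were not particular to members. Plus-strand-only listings were 90.4% for AACGA and 90.2% for GGCGA, and minus-strand-only listings 54.7% for CTCGC.

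The member contexts lay at both ends of the 64 by share at 0 in the first library and by minus-strand-only listing in the second. The share at 0 was used to choose them, and the strand of listing goes with it, so this is a description. CTCGC was the other context with the highest share on the minus strand only, 54.7%, followed by CCCGC with 49.1%. GGCGA was the lowest of these with 6.45%, against 3.95% for TGCGT.

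**Figure D5:**
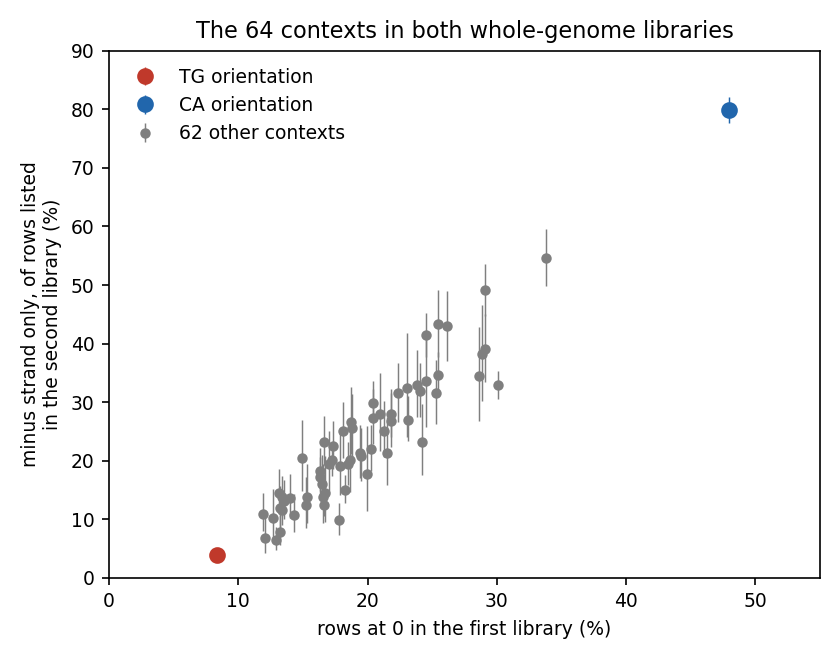
Each point is 1 of the 64 contexts, with the share of its rows at 0 in the first library (%, x axis) and the share listed on the minus strand only among its rows listed in the second library (%, y axis, bars 95% intervals). TG orientation lies lowest at 8.32% and 3.95%, CA orientation highest at 47.9% and 79.9%, and the 62 other contexts between them.

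CpGs listed on the minus strand only were often at 0 on the plus strand, in CA orientation and in other rows. Of the 1104 CA-orientation rows listed on the minus strand only, 873 or 79.1% (76.6% to 81.4%) were at 0 on the plus strand in the first library. In other rows listed on the minus strand only, 67.8% (66.5% to 69.0%) were. At the 409 such CA-orientation rows with recovered reads, the median level was 23.8% (quartiles 15.1% and 30.8%, median 22 reads) on the minus strand in the second library and 0 on the plus strand in the first, with 85.3% at 0. At 4459 such other rows the medians were 27.8% (quartiles 25% and 33.3%, median 13 reads) and 0, with 69.6% at 0, and at 62 such TG-orientation rows 27.3% and 0. These are different libraries, and a minus-strand site is listed only when called. Of CA-orientation rows at 0, 882 of 4904 or 17.99% (16.9% to 19.1%) had a minus-strand listing and 22 or 0.449% a plus-strand one. Of other rows at 0, 6.51% (6.31% to 6.71%) had a minus-strand listing.

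Within each range of level in the first library, the plus strand was listed more often in TG orientation than in other rows. Among rows of 20% to 50%, the plus strand was listed in the second library for 18.8% (17.5% to 20.2%) in TG orientation and for 7.48% (7.26% to 7.70%) of other rows. From 50% to 90% the shares were 27.9% (25.8% to 30.1%) and 15.5% (14.8% to 16.2%), and at 90% or more 30.0% (27.2% to 32.9%) and 21.6% (20.5% to 22.7%). From 10% to 20% they were 11.0% (9.94% to 12.1%) and 6.69% (6.54% to 6.85%). Depth in the first library is unknown. Recovered plus-strand depth in the second had a median of 21 reads in TG orientation and 15 in other rows, and its part in these rates was not tested.

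The p-values deposited for these cytosines were smaller than elsewhere. Of the 3119 cytosines in member context (plus strand in TG, minus strand in CA orientation), 60.2% (58.5% to 61.9%) had p-values at or below 1e-07 in the second library, against 24.2% (23.7% to 24.8%) of 24805 cytosines at other rows. The median p-value was 8.73e-13 in member context and 0.000555 at other rows, both as deposited, and 43.5% and 15.6% were deposited as 0. The opposite strands of members were closer to other rows. Of 93 TG-orientation rows listed on the minus strand 30.1% (21.03% to 40.5%) had such p-values, and of 277 CA-orientation rows listed on the plus strand 33.2% (27.7% to 39.1%). Reads were therefore recovered at only 39.8% of member-context cytosines and at 75.7% of those at other rows. Where they were, depth was higher in member context, with a median of 21 reads (quartiles 14 and 46) against 14 (11 and 20), and its part in the share of small p-values was not tested. The recovered fraction of converted reads, which leaves out the strongest sites, was 25% (23.8% to 25%) in member context and 27.3% at other rows, a difference of -2.27 points (-3.46 to -2.27). With the unrecovered cytosines set to 100%, the sign turned, so the recovered levels do not order the groups.

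At the 825 TG-orientation rows with recovered plus-strand reads, levels of the libraries ranked only weakly alike (Spearman's rho 0.12 across sites, 0.24 across 14107 other rows). With at least 50 reads, the median over 181 TG-orientation rows was 11.9% in the second library and 22.6% before correction in the first. Over 611 other rows the medians were 12.4% and 12.2%. Sites with p-values at or below 1e-07 are absent from these medians, and at such depth only low levels are left.

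The 6 placed members with the smallest p-values in the second library were all deposited with a p-value of 0 there, so that ties were settled by level and then by position. Over all members, that value was deposited for 849 TG-orientation rows on the plus strand and for 508 CA-orientation rows on the minus strand. Since ties were settled by level, all 6 stood at 100% in the first library. They lay on chromosome 1 at 5133039, 65431871, 68324518, 92801871 and 129847019 in TG orientation, listed on the plus strand, and at 132409142 in CA orientation, also listed on the plus strand.

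Few members were in the reduced-representation lists. A reduced-representation library holds fragments that begin and end at MspI sites (CCGG). Neither member context contains that sequence, nor do most other contexts, and whether this bears on the shares was not tested. At either base of the CpG, 22 of 22923 members or 0.0960% (0.0602% to 0.145%) were listed with Tdg shRNA and 14 or 0.0611% (0.0334% to 0.102%) with control shRNA. Of other rows, 0.337% (0.317% to 0.358%) and 0.268% (0.250% to 0.287%) were, and of the whole list 0.32% and 0.254%. For the libraries together the shares were 0.140% (0.0955% to 0.197%) of members and 0.519% (0.494% to 0.545%) of other rows, or 0.493% of the whole list. Of the 32 members in at least 1 of these lists, 5 lay on unplaced contigs, all listed with Tdg shRNA only, at 53.5% to 100%. The share of all rows on unplaced contigs that were listed this way was not counted, so this is no result about members. How many members lie on MspI fragments was not analysed here, so these shares do not measure level. Of the 22 values with Tdg shRNA the median was 31.3% (range 7.48% to 100%), and of the 14 with control shRNA 17.6% (range 3.98% to 100%). Sites on unplaced contigs enter the first median only, so these medians do not compare the same sites.

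Listed in both shRNA libraries were 4 members, or 0.0174% (0.00475% to 0.0447%), against 0.0858% of other rows and 0.0811% of the whole list. All 4 were in CA orientation (0.0391% of its rows), and 0 in TG orientation allows up to 0.0291%. At chromosome 5, 8235183, the base after the listed cytosine was at 100% with Tdg shRNA and 100% with control shRNA, and the plus-strand level in the first wild-type library was 27.4%. At chromosome 15, 57525226, that base was at 100% in both shRNA libraries and the plus strand at 0 in the first wild-type library. At chromosome 12, 52235876, it was at 65.5% with Tdg shRNA and 74.4% with control shRNA, with 13.7% on the plus strand in the first wild-type library. In the second its minus strand was listed, with 4.23e-10 as the authors' deposited p-value. At chromosome 5, 47590982, the listed base itself was at 99.4% with Tdg shRNA and 98.1% with control shRNA, against 9.07% in the first wild-type library. In 3 of these 4, the shRNA value thus stood at the minus-strand base of the CpG, whose level is not in the first wild-type list. With 1 library per shRNA group, no difference between them was tested.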

How the data were processed

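The files listed single CpG cytosines of 4 libraries. The submitters' processing notes name the build mm9 and the tools Bismark 0.10.1 and CASAVA 1.8. Calling rules, filters and read totals were not given. In 3 files the deposited value is a percent of converted reads. Backgrounds tried in steps of 0.1% (tolerance 1e-06) matched 100% of values at 3.0% for the first whole-genome, 3.3% for the Tdg shRNA and 2.9% for the control shRNA library, as subtracted by the authors. In the second whole-genome file the deposited value is a p-value, at most 0.00997. Binomial upper tails with a background of 3.8% matched 99.8% of the p-values above 1e-07 (up to 400 reads), and up to 20000 reads gave 1 pair of total and converted reads at 85.3% of sites (relative tolerance 1e-08).

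Minus-strand positions were assigned to the plus-strand cytosine of their CpG. The strand of shRNA positions is unknown, so both bases of a CpG were searched. Overlapping contexts were joined into stretches only where their shared letters were identical, which held throughout. Shares have exact and medians order-statistic 95% intervals, joined for differences by the MOVER method (method of variance estimates recovery). They cover counting error only and treat neighbouring sites as independent, which they are not. Sites are not replicates and no p-value was computed. Named sites were 6 members with the smallest p-values, the 4 longest stretches and members in both shRNA libraries, outside chromosome 18, and for single sites outside unplaced contigs and windows of 10 kb with more than 20 sites in the second library. Members and lists were chosen with earlier results of these data known. The reference tables are of another build and were not used. Steps were tested on simulated data. Python 3.11.15, NumPy 2.4.6, pandas 2.3.3 and SciPy 1.17.1 were used.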

Additional observations from a re-analysis of the deposited data

How the results depend on the processing

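Of 49 alternative values for 8 results, 47 kept their direction with an interval that left out 0. For median level and share at 0 in the first library, by which the contexts were chosen, the direction was given by that choice. The exceptions were for the recovered level in the second library. With cytosines without recovered reads set to 100% in both groups, the difference of member context minus other rows was 70.0 points in place of -2.27, since 60.2% of member-context cytosines had no recovered reads. Over members with no other within 1000 bp it was -1.07 points (-2.27 to 0). That restriction and a single row per group joined within 100 bp were chosen after the data had been seen. They lowered the difference in median level of TG orientation to 1.44 and 2.47 points, against 7.01 over all, and that in the share at 0 of CA orientation to 14.4 and 19.1 points, against 28.3. For the share at 0 of TG orientation they gave -7.28 and -7.90 points, against -11.3. Minus-strand-only listing in CA orientation was then 34.6 and 44.8 points more frequent than in other rows, against 56.8. With any first letter of the context, the differences were 3.196 points for the median of TG orientation, 15.2 points for the share at 0 of CA orientation and 37.5 points for its minus-strand-only listing. Leaving out unplaced contigs and dense windows moved the share listed in either shRNA library at the same base to -0.144 points relative to other rows, against -0.221, and merging strands to -0.380. No paired analysis was possible because the whole-genome libraries hold values in different units and each shRNA group had 1 library, so leaving out a replicate was not possible either. Unknown depth in 3 libraries limits the level of every single site.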
